A study of Mus musculus with 18 samples.

Results

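Fatty acid carriers and lipid droplet genes were followed as a set of 10 in mouse microglia: the fatty acid binding proteins Fabp3, Fabp4 and Fabp5, the uptake receptor Cd36, the triglyceride synthesising enzymes Dgat1 and Dgat2, the droplet coat proteins Plin2 and Plin3, and the lipases Pnpla2 and Lipa. The genes were chosen by name, each was read from the brightest probe set annotated to that symbol alone, and all 10 were measured among 22180 genes. Microglia, the resident macrophages of the brain, had been taken from untreated C57Bl/6 mice kept under specific pathogen free conditions, enriched on Percoll and gated as CD45+ CD11b+ Gr1- cells. There were 6 groups of 3 arrays, 18 in all: cortex and corpus callosum of pups at P3 and P7 (days after birth) and of adults. All animals were healthy and carried no named allele. The labels do not give the age of the adults in days, the sex of the animals, or whether cells of several animals were pooled, so p-values measure the spread between these samples, which may be technical. P3 arrays carry another prefix in the labels than P7 and adult arrays, so age and array set cannot be told apart wherever P3 is set against P7.

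Fatty acids enter a phagocyte through receptors such as CD36 or with engulfed lipid, are carried through the cytosol by binding proteins, and are stored as triglyceride and cholesteryl ester in droplets. Perilipins coat the droplets, diacylglycerol acyltransferases fill them, and adipose triglyceride lipase (Pnpla2) empties them. Lysosomal acid lipase (Lipa) splits cholesteryl esters and triglycerides that arrive by endocytosis. Axons of the corpus callosum, a tract of white matter, gain their myelin, a membrane rich in lipid, after birth.

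The sorted cells carried the transcripts of microglia. Of 12 listed microglial markers 11 were measured, and their mean level lay between 10.33 and 11.28 on every array. None of them had a mean below 5.73 log2 units, the lowest array median over the probe sets with a single gene symbol. Markers of endothelial cells (14 of 14 measured, 10 with a mean below that median) averaged between 4.99 and 5.36 on every array. Xist, transcribed in females, was high on replicate 1 of each P7 and adult group, at 10.91 to 11.84. On replicates 2 and 3 of those groups it measured 4.07 to 5.12, and on the P3 arrays 6.62 to 11.57. Kdm5d, a gene of the Y chromosome, measured 6.64 on callosal P7 replicate 1, against 4.09 on cortical P7 replicate 1. At P3, callosal replicate 3 had Xist at 10.45 and Kdm5d at 7.28. Cortical replicates 2 and 3 had Xist at 9.52 and 8.08 and Kdm5d at 7.01 and 7.52. Whether arrays with both transcripts hold cells of males and females was not tested. Corpus callosum replicate 3 at P3 stood apart in leukocyte markers: its neutrophil list averaged 6.35, against 5.11 and 5.37 on the other callosal arrays of that age, and its monocyte list 6.14, against 5.44 and 5.40. Corpus callosum replicate 1 at P7 stood apart in the neutrophil list, at 5.76 against 4.94 and 4.995, while its monocyte list, at 5.38, was close to the 5.30 and 5.34 of the others. Cortex replicate 1 in the adult had a monocyte list of 5.51, against 5.10 and 5.11, and a lymphocyte list of 5.36, against 5.02 and 5.04. Cortex replicate 1 at P3 had a neutrophil list of 5.61, against 5.30 and 4.86. Most genes of these lists were dim. A mean below the lowest array median was found for 9 of 10 measured neutrophil, 7 of 9 monocyte and 5 of 7 lymphocyte markers.

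RefSeq promoter windows were found for 6 of the 10 genes. Those of Lipa, Plin2 and Plin3 are shown because the genes were lower in adult than in P7 callosal microglia and their windows share a motif. Each window holds the 250 bases before an annotated start in GRCm38.p6, on the minus strand. They lie at chr19:34527475-34527724 for Lipa, at chr4:86670060-86670309 for Plin2 and at chr17:56290512-56290761 for Plin3. The windows of Lipa and Plin3 adjoin the 5′ end of the annotated gene. That of Plin2 belongs to a start inside the annotated gene, whose 5′ end is at 86670217, so part of this window lies within the gene. All are written 5′ to 3′ along the gene, with capitals where a searched motif matched on either strand.
Lipa: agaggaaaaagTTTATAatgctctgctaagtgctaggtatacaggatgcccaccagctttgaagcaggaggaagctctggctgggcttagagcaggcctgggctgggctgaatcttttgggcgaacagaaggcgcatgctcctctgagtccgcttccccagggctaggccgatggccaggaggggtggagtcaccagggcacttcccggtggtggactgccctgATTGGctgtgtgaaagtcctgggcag
Plin2: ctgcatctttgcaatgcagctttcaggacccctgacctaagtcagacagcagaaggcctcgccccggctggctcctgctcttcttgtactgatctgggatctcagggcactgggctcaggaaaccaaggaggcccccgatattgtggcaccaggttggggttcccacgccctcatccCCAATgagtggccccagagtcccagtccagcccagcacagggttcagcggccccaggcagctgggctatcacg
Plin3: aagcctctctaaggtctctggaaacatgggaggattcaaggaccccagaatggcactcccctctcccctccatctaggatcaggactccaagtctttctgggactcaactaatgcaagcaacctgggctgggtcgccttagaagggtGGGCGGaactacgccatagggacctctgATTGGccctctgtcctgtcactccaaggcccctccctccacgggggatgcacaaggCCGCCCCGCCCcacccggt
The motif CCAAT lies 73 bases before that start of Plin2 on the strand shown, within the annotated gene. Written ATTGG there, and so on the opposite strand, it lies 26 bases before the start of Lipa and 75 bases before that of Plin3. It was present in 4 of the 6 windows, among them that of Cd36, which was not called, and in 33.8% of 32851 RefSeq windows of that length. The window of Fabp3, also called lower in adult than in P7 callosal microglia, held none of the searched motifs. CCAAT was added to the search after the windows had been read, and the windows shown were chosen for sharing it. The capitals near the 5′ end of the Lipa window are TATAAA on the opposite strand, 239 bases before the start, a motif held by 12.4% of all windows and by no other window of the 6. The remaining capitals in the Plin3 window are GGGCGG at 103, 19 and 14 bases before the start, the latter pair on the opposite strand and overlapping by a base. That motif is held by 3 of the 6 windows and by 32.7% of all windows. The E-box CACGTG, the longer CLEAR element of lysosomal genes and the direct repeat on which nuclear receptor dimers sit were searched on both strands as well and found in 0 of the 6 windows, and in 6.02%, 0.24% and 0.0335% of all windows. A match is a match of letters only.

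**Figure D1:**
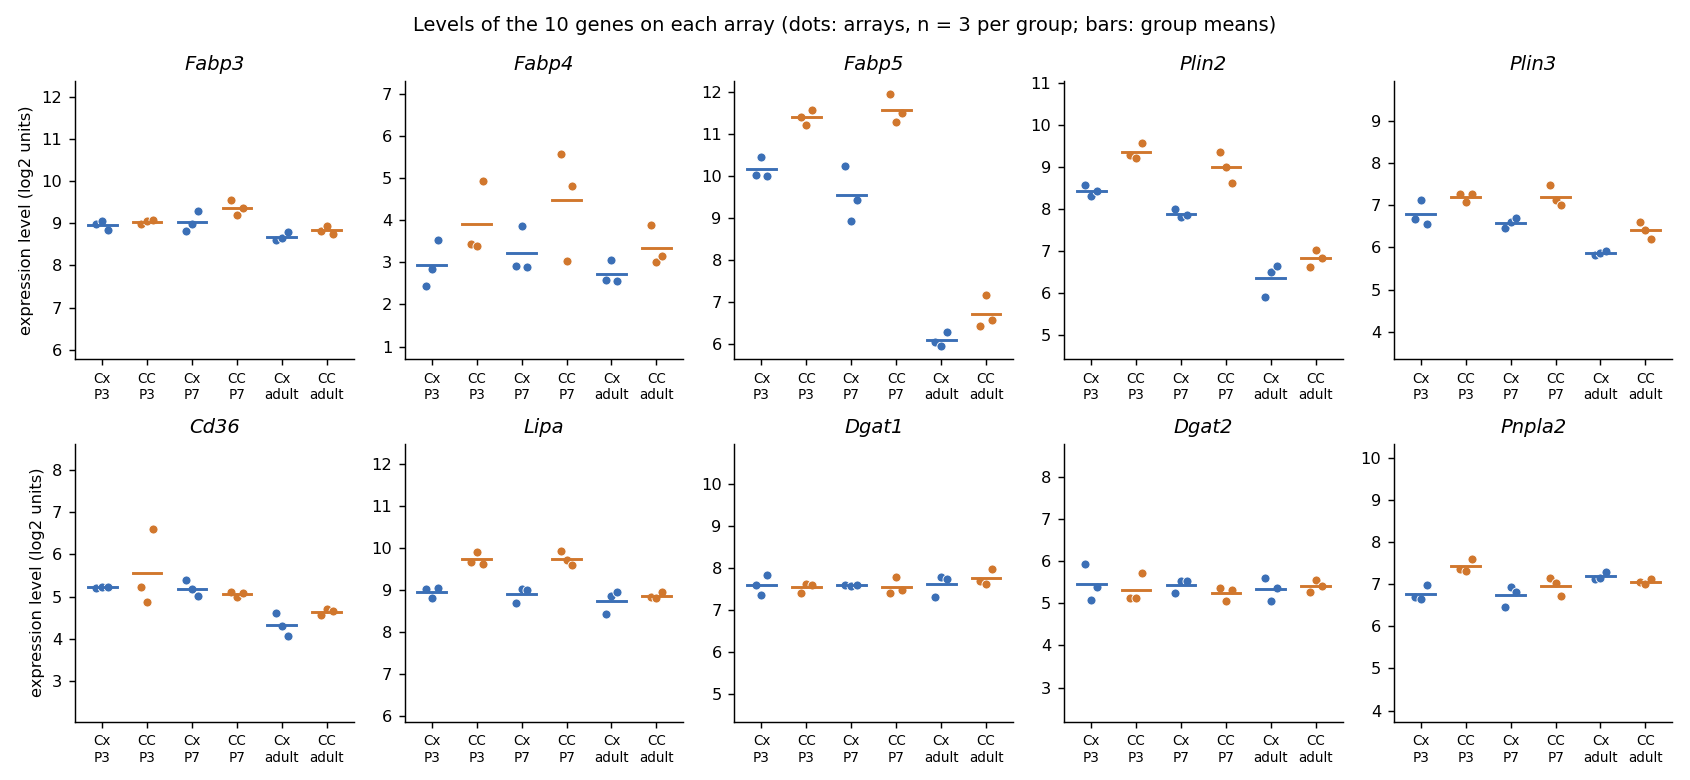
Expression level (log2 units, vertical axis) of each of the 10 genes on each of the 18 arrays, with blue dots for cortex (Cx), orange dots for corpus callosum (CC) and bars for group means; all panels span the same number of log2 units. Fabp5 and Plin2 are lower on all adult arrays than on all P3 and P7 arrays, whereas the Dgat1 and Dgat2 dots of all groups overlap.

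The 10 genes differed widely in how far their 6 group means lay apart, as the plot of levels by array shows. The span was 5.48 log2 units for Fabp5 and 3.00 for Plin2, where the pooled SD within groups was 0.37 and 0.26. Plin3 spanned 1.34 with an SD of 0.19, and Lipa 0.996 with an SD of 0.18. For Dgat1 the span of 0.22 was about the size of its SD of 0.19, and for Dgat2 the span of 0.21 was below its SD of 0.27. Levels are compared between groups for a gene, never between genes, because probe sets differ in brightness.

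Corpus callosum was compared with cortex at P7, early in the life of the tract. Fabp5, a cytosolic fatty acid carrier of macrophages and epidermis, was 4.11-fold higher in callosal microglia. Plin2, a perilipin that coats droplets in most cell types, was 2.13-fold higher, and Lipa 1.79-fold higher. These 3 of 10 genes were called (limma over all genes, adjusted p under 0.05) and 0 were called lower, beside 0.451% of all genes called at this age. In bulk samples a difference in the share of a kind of cell and a difference in RNA per cell cannot be told apart, here or in any comparison that follows.

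Fabp5 at P7 measured 10.23, 8.94 and 9.44 in cortex and 11.94, 11.29 and 11.50 in corpus callosum (replicates 1, 2 and 3). All callosal arrays lay above all cortical arrays, and replicate 1, the array with high Xist, was the highest of each group. In corpus callosum this is the array that stood apart in neutrophil markers. Among the callosal arrays of that age it was the highest for each of the 10 genes except Dgat1, for which it was the lowest. Without it the difference of Fabp5 was 1.86 (adjusted p 0.00437). The part of neutrophil transcripts in the P7 values was not tested. The difference was 2.04 ± 0.26 (SE) log2 units with an adjusted p of 0.00045. Left out in turn, no array ended the call, and the difference stayed between 1.74 and 2.39.

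Plin2 at P7 measured 8.005, 7.81 and 7.86 in cortex and 9.35, 8.99 and 8.62 in corpus callosum. The groups did not overlap, and the callosal arrays were spread more widely (SD 0.37) than the cortical arrays (SD 0.10). The difference was 1.09 ± 0.19 with an adjusted p of 0.00875. The call was lost without callosal replicate 1 (0.91, adjusted p 0.101), cortical replicate 2 (adjusted p 0.0641) or cortical replicate 3 (adjusted p 0.0535).

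Lipa at P7 measured 8.70, 9.02 and 8.99 in cortex and 9.92, 9.72 and 9.60 in corpus callosum. Again the lowest callosal array lay above the highest cortical array. The difference was 0.84 ± 0.15 with an adjusted p of 0.00838, and it lost the call without replicate 1 of corpus callosum (0.75, adjusted p 0.0967) or of cortex (0.74, adjusted p 0.0906). With only the P7 arrays in the fit, Plin2 and Lipa both had an adjusted p of 0.0632.

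Plin3, the perilipin also known as TIP47 that binds nascent droplets, had cortical levels of 6.46, 6.60 and 6.69 and callosal levels of 7.49, 7.12 and 7.01 at P7. Its arrays did not overlap, but its difference of 0.63 ± 0.16 missed the threshold (adjusted p 0.123). It was called with the filter on dim genes (adjusted p 0.0463) and with array weights (0.55, adjusted p 0.0444), and without callosal replicate 1 it was 0.48 (adjusted p 0.866). In all, 4 of the 10 genes had callosal arrays wholly above the cortical arrays, as did 8.97% of all genes, and 0 had them wholly below, as did 7.76% of all genes. The median difference of the 10 genes was 0.48, against 0.00 over all genes.

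**Figure D2:**
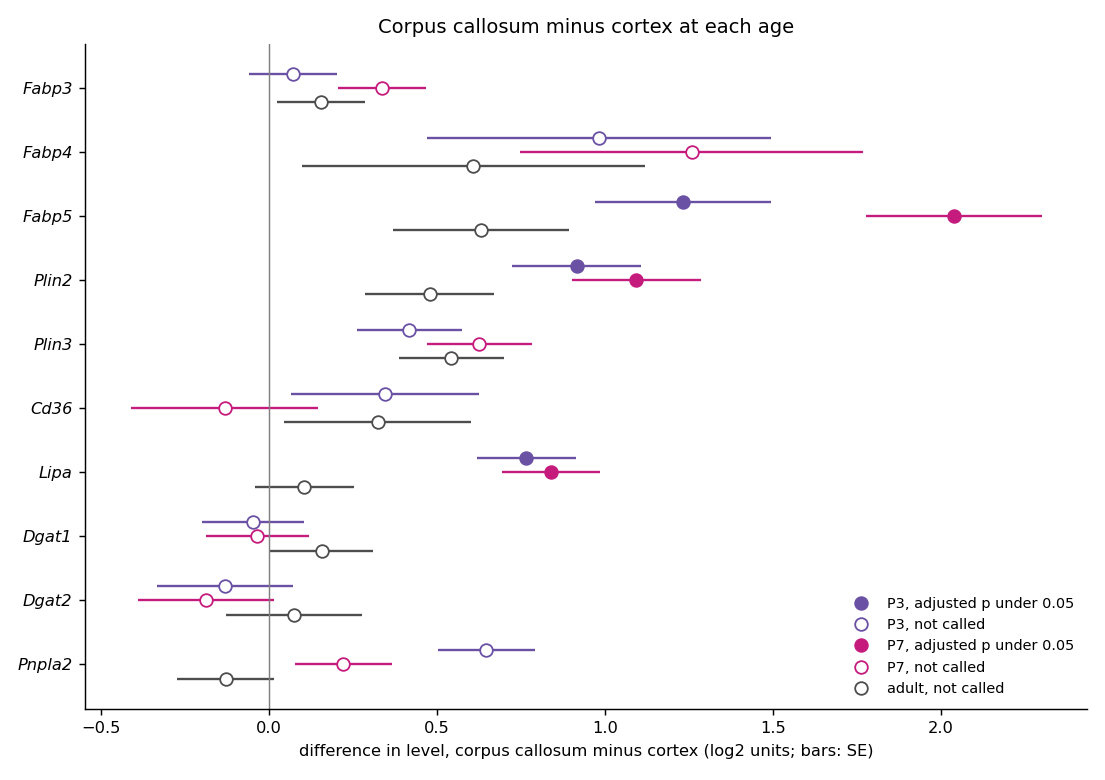
Difference in level between corpus callosum and cortex (log2 units, horizontal axis; points: fitted difference; bars: SE) for the 10 genes at P3, P7 and in the adult; filled points have an adjusted p under 0.05. Fabp5, Plin2 and Lipa carry filled points at P3 and P7, and no gene does in the adult.

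At P3 the same 3 genes were called higher in corpus callosum, beside 0.505% of all genes. Fabp5 was 2.35-fold higher (1.23 ± 0.26, adjusted p 0.0403), Plin2 1.89-fold higher (0.92 ± 0.19, adjusted p 0.0384) and Lipa 1.70-fold higher (0.77 ± 0.15, adjusted p 0.0229). The calls of Fabp5 and Plin2 were lost whichever of the 6 P3 arrays was left out (adjusted p 0.0558 to 0.159 for Fabp5 and 0.0509 to 0.128 for Plin2), although the differences stayed at 1.15 or more and at 0.81 or more. Lipa lost the call without callosal replicate 2 (adjusted p 0.0671), cortical replicate 1 (0.0662) or cortical replicate 2 (0.112). It was lost as well with the replicate number as a block (adjusted p 0.0579) and with only the P3 arrays in the fit (adjusted p 0.144). Plin2 lost it in that latter fit (adjusted p 0.111), and both Plin2 and Fabp5 with a further quantile normalization (adjusted p 0.0545 and 0.0628) and with array weights (0.0666 and 0.1).

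The P3 arrays behind these differences were as follows. Fabp5 measured 10.02, 10.45 and 10.01 in cortex and 11.40, 11.20 and 11.56 in corpus callosum. Plin2 measured 8.57, 8.32 and 8.43 in cortex and 9.29, 9.21 and 9.57 in corpus callosum. The callosal arrays exceeded the cortical arrays for both genes, and callosal replicate 3, the array with the most leukocyte transcripts, was the highest of its group in both. Without that array the differences were 1.15 for Fabp5 and 0.81 for Plin2. Lipa measured 9.03, 8.80 and 9.04 in cortex and 9.66, 9.90 and 9.62 in corpus callosum, where that array was the lowest of the callosal group.

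Pnpla2, the lipase that takes the first fatty acid from stored triglyceride, was the fourth gene without overlap at P3. Its levels were 6.69, 6.65 and 6.99 in cortex and 7.35, 7.32 and 7.60 in corpus callosum, a difference of 0.65 ± 0.14 that missed the threshold (adjusted p 0.0543). It was called with a trended eBayes (adjusted p 0.0349), with the filter on dim genes (adjusted p 0.023) and without cortical replicate 3 (0.75, adjusted p 0.0495). Thus 4 of 10 genes had wholly higher callosal arrays, where 9.17% of all genes did. At P7 the difference of Pnpla2 was 0.22 ± 0.14 (adjusted p 0.899) and in the adult -0.13 ± 0.14 (adjusted p 0.855). The median difference of the 10 genes at P3 was 0.53, against 0.01 over all genes.

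Some macrophage markers differed along with these genes. Of 10 measured markers of border associated macrophages, which line meninges and vessels, 2 were called higher in corpus callosum at P3 and 1 at P7; 4 of the 10 had a mean below the lowest array median. Their mean level ran from 6.19 to 6.67 in cortex and from 6.54 to 7.25 in corpus callosum at P3, and from 6.52 to 6.83 and from 6.76 to 6.97 at P7. The markers did not move as one: their median difference was 0.35 at P3 and 0.02 at P7. Folr2, a folate receptor, had P7 group means of 7.24 in cortex and 9.19 in corpus callosum. Mrc1, the mannose receptor CD206, was lower in corpus callosum, with means of 10.36 and 9.64 at P3 and of 11.05 and 10.57 at P7, and Lyve1, Pf4 and Cbr2 also had lower callosal means at P7. Their part in the regional differences was not tested. Of 11 microglial markers 0 were called in either direction at P3 or P7, yet their median difference was -0.18 at each age. At P7 their mean level lay between 10.76 and 10.79 in cortex and between 10.40 and 10.64 in corpus callosum. At P3 it lay between 10.46 and 10.63 and between 10.33 and 10.48. Tmem119 had P7 means of 8.42 in cortex and 7.77 in corpus callosum, while Trem2 went the other way, with 9.67 and 9.80. The part of these markers was not tested either.

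In the adult the regional comparison called 0 of the 10 genes in limma, beside 0.00451% of all genes (1 gene). At an unadjusted p under 0.05 there were 3, against 8.51% of all genes. Fabp5 measured 6.05, 5.96 and 6.29 in cortex and 6.44, 7.18 and 6.58 in corpus callosum, without overlap, for a difference of 0.63 ± 0.26 (adjusted p 0.543). Plin3 measured 5.81, 5.88 and 5.91 in cortex and 6.61, 6.42 and 6.19 in corpus callosum, also without overlap, for a difference of 0.54 ± 0.16 (adjusted p 0.385). Plin2 had arrays that overlapped, at 5.91, 6.51 and 6.64 in cortex and 6.62, 7.04 and 6.84 in corpus callosum (0.48 ± 0.19, adjusted p 0.535). Callosal arrays lay wholly above cortical arrays for 2 of the 10 genes and for 6.73% of all genes. Lipa, at 8.42, 8.87 and 8.95 in cortex and 8.82, 8.80 and 8.94 in corpus callosum, differed by 0.11 ± 0.15 (adjusted p 0.889), with a 95% interval of -0.20 to 0.41. Cortical replicate 1, the adult array with higher monocyte and lymphocyte lists, was the lowest of its group for Plin2 and Lipa. Without it the Lipa difference was -0.0563.

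Whether the regional difference itself changed with age was tested on the difference of differences. From P7 to the adult its estimated shift was -1.41 ± 0.37 log2 units for Fabp5 (adjusted p 0.197), -0.73 ± 0.21 for Lipa (adjusted p 0.26) and -0.62 ± 0.27 for Plin2 (adjusted p 0.629). None of the 10 genes was called in limma, 3 had an unadjusted p under 0.05 (7.34% of all genes did), and 0.203% of all genes were called. A call in the postnatal regions and none in the adult is therefore not a tested difference between ages for these genes, with the brightest probe sets. Against P3 the largest estimates were -0.78 ± 0.20 for Pnpla2 (adjusted p 0.111) and -0.66 ± 0.21 for Lipa (adjusted p 0.165). There 0 genes of the 10 were called, 2 had an unadjusted p under 0.05 (13.7% of all genes did), and 0.18% of all genes were called. Between P7 and P3, limma called 0 of the 10 and 0% of all genes, and 1 of the 10 (5.68% of all genes) had an unadjusted p under 0.05.

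Adult microglia were compared with P7 microglia within each region. Fabp5 fell 10.8-fold in cortex and 28.7-fold in corpus callosum. Plin2 fell 2.90-fold in cortex and 4.45-fold in corpus callosum, and Plin3 fell 1.64-fold and 1.74-fold. In corpus callosum Lipa also fell, 1.85-fold, and Fabp3, the heart-type fatty acid carrier, 1.45-fold. In cortex 3 of 10 genes were called lower and 0 higher, beside 10.2% of all genes called and 6.15% called lower; in corpus callosum 5 of 10 were called lower and 0 higher, beside 17.2% called and 10.7% called lower.

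**Figure D3:**
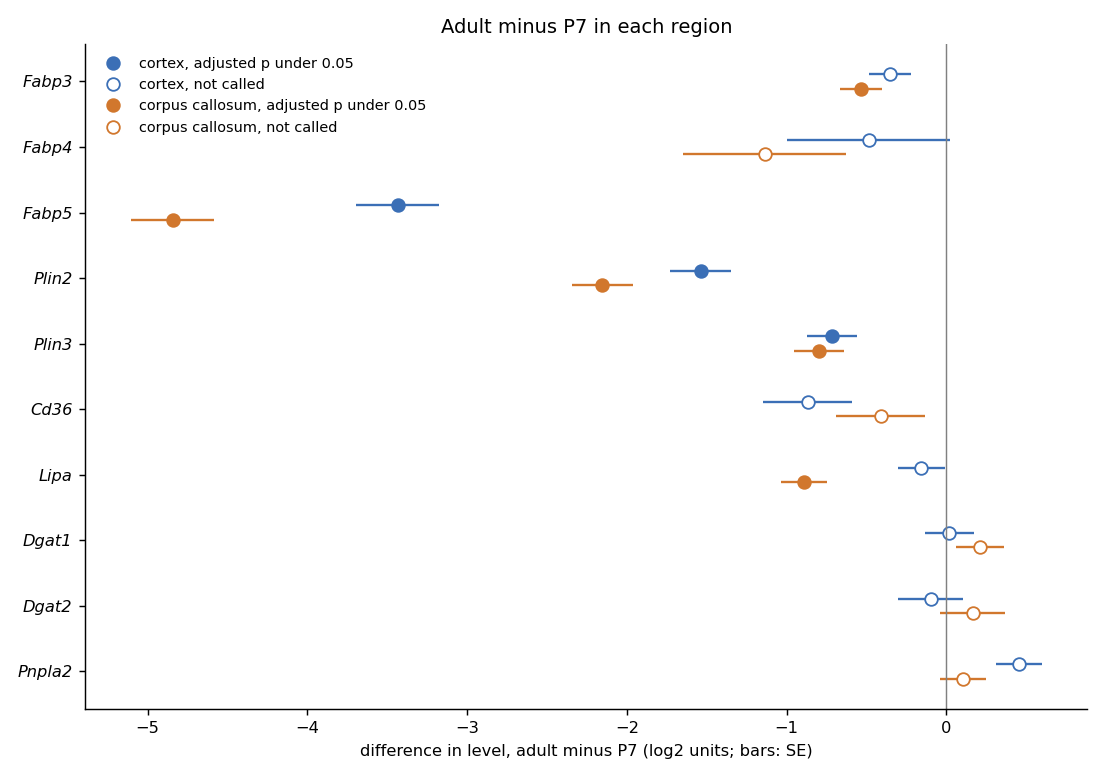
Difference in level between adult and P7 microglia (log2 units, horizontal axis; points: fitted difference; bars: SE) for the 10 genes, in blue for cortex and orange for corpus callosum; filled points have an adjusted p under 0.05. Fabp5 lies farthest from 0 in both regions, and Dgat1, Dgat2 and Pnpla2 have open points in both.

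For Fabp5 the fitted difference was -3.44 ± 0.26 in cortex (adjusted p 3.16e-08) and -4.84 ± 0.26 in corpus callosum (adjusted p 6.87e-10). Its lowest P7 array, at 8.94, was above its highest adult array, at 7.18. With each array left out in turn the cortical difference ran from -3.73 to -3.09 and the callosal difference from -5.07 to -4.66.

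For Plin2 the difference was -1.54 ± 0.19 in cortex (adjusted p 1.92e-05) and -2.15 ± 0.19 in corpus callosum (adjusted p 2.53e-07). Every P7 array, from 7.81 upwards, was above every adult array, of which the highest was 7.04. Plin3 differed by -0.72 ± 0.16 in cortex (adjusted p 0.00469) and by -0.80 ± 0.16 in corpus callosum (adjusted p 0.00124). The callosal adult arrays of Plin3 reached up to 6.61 and so overlapped the cortical P7 arrays.

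Lipa differed by -0.89 ± 0.15 in corpus callosum (adjusted p 0.000241) and by -0.16 ± 0.15 in cortex (adjusted p 0.64). Its callosal arrays of P3 and P7 were all above the 12 others, which reached no higher than 9.04. Fabp3 measured 9.55, 9.19 and 9.36 in callosal microglia at P7 and 8.81, 8.93 and 8.75 in the adult, without overlap (-0.53 ± 0.13, adjusted p 0.00732). In cortex its levels were 8.81, 8.98 and 9.30 at P7 and 8.60, 8.65 and 8.78 in the adult (-0.35 ± 0.13, adjusted p 0.11). The callosal call of Fabp3 was lost without P7 replicate 1 of corpus callosum (-0.44, adjusted p 0.05) and when the arrays were quantile normalized once more (-0.34, adjusted p 0.081).

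Pnpla2 was the only one of the 10 genes whose adult arrays all lay above its P7 arrays in cortex, where 13.7% of all genes did so. It measured 6.47, 6.93 and 6.81 at P7 and 7.12, 7.16 and 7.29 in the adult, a difference of 0.45 ± 0.14 that missed the threshold (adjusted p 0.054). This cortical rise was called in 5 of 14 alternatives. In corpus callosum the levels were 7.14, 7.02 and 6.71 at P7 and 7.05, 7.00 and 7.13 in the adult (0.10 ± 0.14, adjusted p 0.695). Adult arrays lay wholly below P7 arrays for 5 of the 10 genes in cortex and 6 in corpus callosum, and for 13.7% and 17% of all genes. The median difference of the 10 genes was -0.42 in cortex and -0.67 in corpus callosum, against 0.03 and 0.05 over all genes.

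Border macrophage markers moved the same way between P7 and the adult. Of the 10 measured, 4 were called lower in adult cortex and 6 in adult corpus callosum, and 4 of the 10 had a mean below the lowest array median. Their mean level lay between 6.52 and 6.83 on the P7 arrays of cortex and between 5.54 and 5.64 on the adult arrays. In corpus callosum it lay between 6.76 and 6.97 at P7 and between 5.64 and 5.72 in the adult. Mrc1 had adult group means of 6.82 in cortex and 6.13 in corpus callosum. Of 11 microglial markers, 5 were called higher in adult cortex and 7 in adult corpus callosum. The part of these shifts in the falls of Fabp5, Plin2 and Plin3 was not tested.

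Between P3 and P7 limma called 0 of the 10 genes in cortex, beside 0.884% of all genes, and 0 in corpus callosum, beside 0.739%. In cortex Fabp5 (-0.62 ± 0.26, adjusted p 0.312) and Plin2 (-0.55 ± 0.19, adjusted p 0.215) had an unadjusted p under 0.05, as did 13% of all genes. In corpus callosum these were Pnpla2 (-0.46 ± 0.14, adjusted p 0.141) and Fabp3 (0.33 ± 0.13, adjusted p 0.256), beside 14.2% of all genes.

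Cd36, a scavenger receptor that takes up fatty acids and oxidised lipoproteins, lay below the array medians in every group mean. It measured 5.21, 5.23 and 5.23 in cortex and 5.23, 4.87 and 6.60 in corpus callosum at P3. The value of 6.60 came from the array with the most leukocyte transcripts and was the highest of all 18. With it the regional difference was 0.35 ± 0.28 (adjusted p 0.661), and without it -0.17 (adjusted p 0.711). Levels at P7 were 5.38, 5.18 and 5.01 in cortex and 5.10, 4.99 and 5.08 in corpus callosum, and in the adult 4.60, 4.30 and 4.06 in cortex and 4.56, 4.71 and 4.67 in corpus callosum. Adult arrays lay below P7 arrays in both regions, yet the differences missed the threshold (-0.87 ± 0.28, adjusted p 0.0576 in cortex and -0.41 ± 0.28, adjusted p 0.363 in corpus callosum). The cortical fall was called in 3 of 13 alternatives and the callosal fall in 1 of 13.

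Fabp4, the carrier of adipocytes and of some macrophages and endothelial cells, was dim, and its arrays scattered more than those of any other of the 10 genes. At P7 it measured 2.90, 3.86 and 2.89 in cortex and 5.58, 3.03 and 4.82 in corpus callosum, so that the groups overlapped although their means differed by 1.26 ± 0.51 (adjusted p 0.585). At P3 it measured 2.43, 2.84 and 3.54 in cortex and 3.43, 3.39 and 4.93 in corpus callosum, where the highest array was again callosal replicate 3. Adult levels ran from 2.56 to 3.05 in cortex and from 3.00 to 3.87 in corpus callosum. Its 95% interval of the regional difference ran from -0.09 to 2.06 at P3, from 0.18 to 2.33 at P7 and from -0.47 to 1.68 in the adult, before any adjustment over genes. No endothelial marker of the 14 was called between regions at P3, at P7 or in the adult, beside 0.505%, 0.451% and 0.00451% of all genes. With shares that low a call among 14 genes was unlikely, and 10 of the 14 had a mean below the lowest array median. The part of endothelial cells in the Fabp4 values was not tested.

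Dgat1 and Dgat2, the enzymes that add the last fatty acid to triglyceride, gave no call in any of the 10 comparisons. Dgat1 ran from 7.31 to 7.98 over all arrays, and its regional difference had 95% intervals of -0.37 to 0.27 at P3, -0.36 to 0.29 at P7 and -0.16 to 0.48 in the adult. Dgat2 ran from 5.05 to 5.92, with intervals of -0.56 to 0.30, -0.61 to 0.24 and -0.35 to 0.50. With 3 arrays a group these intervals still hold differences of that size in either direction.

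Fabp5 has 4 probe sets that are annotated to it alone, and they differed in the size of the change. Probe set 17548238, the brightest and the one used above, and probe set 17548717 had group means that differed by less than their SD. Probe set 17548717 gave regional differences of 1.20 ± 0.26 at P3, which missed the threshold (adjusted p 0.0515), of 2.02 ± 0.26 at P7 (adjusted p 0.000481) and of 0.55 ± 0.26 in the adult (adjusted p 0.594). Probe set 17404073 gave larger regional differences, 2.29 ± 0.30 at P3 (adjusted p 0.0017), 3.05 ± 0.30 at P7 (adjusted p 3.46e-05) and 1.13 ± 0.30 in the adult (adjusted p 0.37). Probe set 17396056 gave 2.14 ± 0.32 at P3 (adjusted p 0.00419), 2.57 ± 0.32 at P7 (adjusted p 0.000272) and 0.12 ± 0.32 in the adult (adjusted p 0.945). The direction was the same in all 4 probe sets and at all 3 ages.

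**Figure D4:**
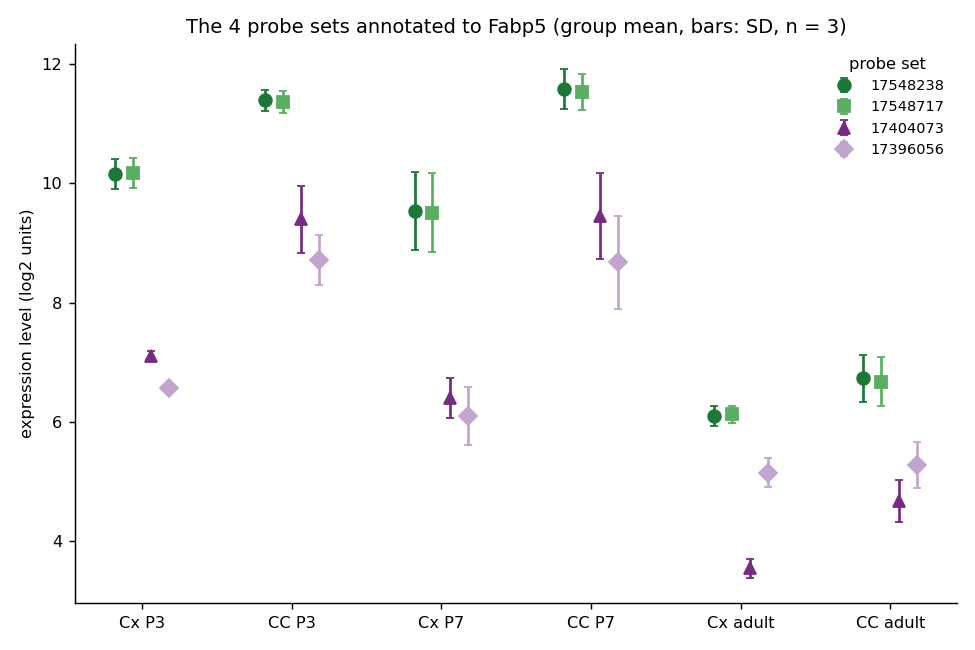
Mean level (log2 units, vertical axis; bars: SD, n = 3 arrays) of the 4 probe sets annotated to Fabp5 in cortex (Cx) and corpus callosum (CC) at P3, P7 and in the adult. The green pair stays together in every group, whereas the purple pair is lower and shows the larger step between cortex and corpus callosum at P3 and P7.

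The fall from P7 to the adult in cortex depended on the probe set. It was -3.44 and -3.38 in the bright pair and -2.86 ± 0.30 in probe set 17404073 (adjusted p 2.63e-06), but -0.95 ± 0.32 in probe set 17396056, which missed the threshold (adjusted p 0.0691). In corpus callosum it was -4.84, -4.86, -4.78 and -3.40, past the threshold in all 4. The change of the regional difference from P7 to the adult passed the threshold in probe set 17396056 (-2.45 ± 0.45, adjusted p 0.0333) and in the mean of the 4 (-1.81, adjusted p 0.0456), not in the other three taken singly. RefSeq lists a pseudogene for each family member concerned, Fabp5l2 and Fabp3-ps1; which copy each probe set reads is not given in the sources used here, so the size of the Fabp5 and Fabp3 differences is uncertain. The other probe set of Fabp3, 17430628, gave no call, and its fall in corpus callosum was -0.13 ± 0.14 (adjusted p 0.586).

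A list of 68 further genes of fatty acid handling, of which 62 were measured, showed how far the pattern reached. Between regions 1 of the 62 was called at P3, the same gene at P7 and 0 in the adult, beside 0.505%, 0.451% and 0.00451% of all genes. That gene was Nceh1, which encodes neutral cholesterol ester hydrolase and acts on cholesteryl ester outside the lysosome. It measured 7.10, 6.81 and 6.87 in cortex and 9.29, 8.63 and 8.45 in corpus callosum at P7, a 3.64-fold difference without overlap (1.86 ± 0.19, adjusted p 3.93e-05). At P3 the difference was 1.46 ± 0.19 (adjusted p 0.00145) and in the adult 0.46 ± 0.19 (adjusted p 0.535), and the change from P7 to the adult was itself called (-1.40 ± 0.26, adjusted p 0.037). The median regional difference of the 62 genes was 0.10 at P3, 0.09 at P7 and -0.04 in the adult.

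**Figure D5:**
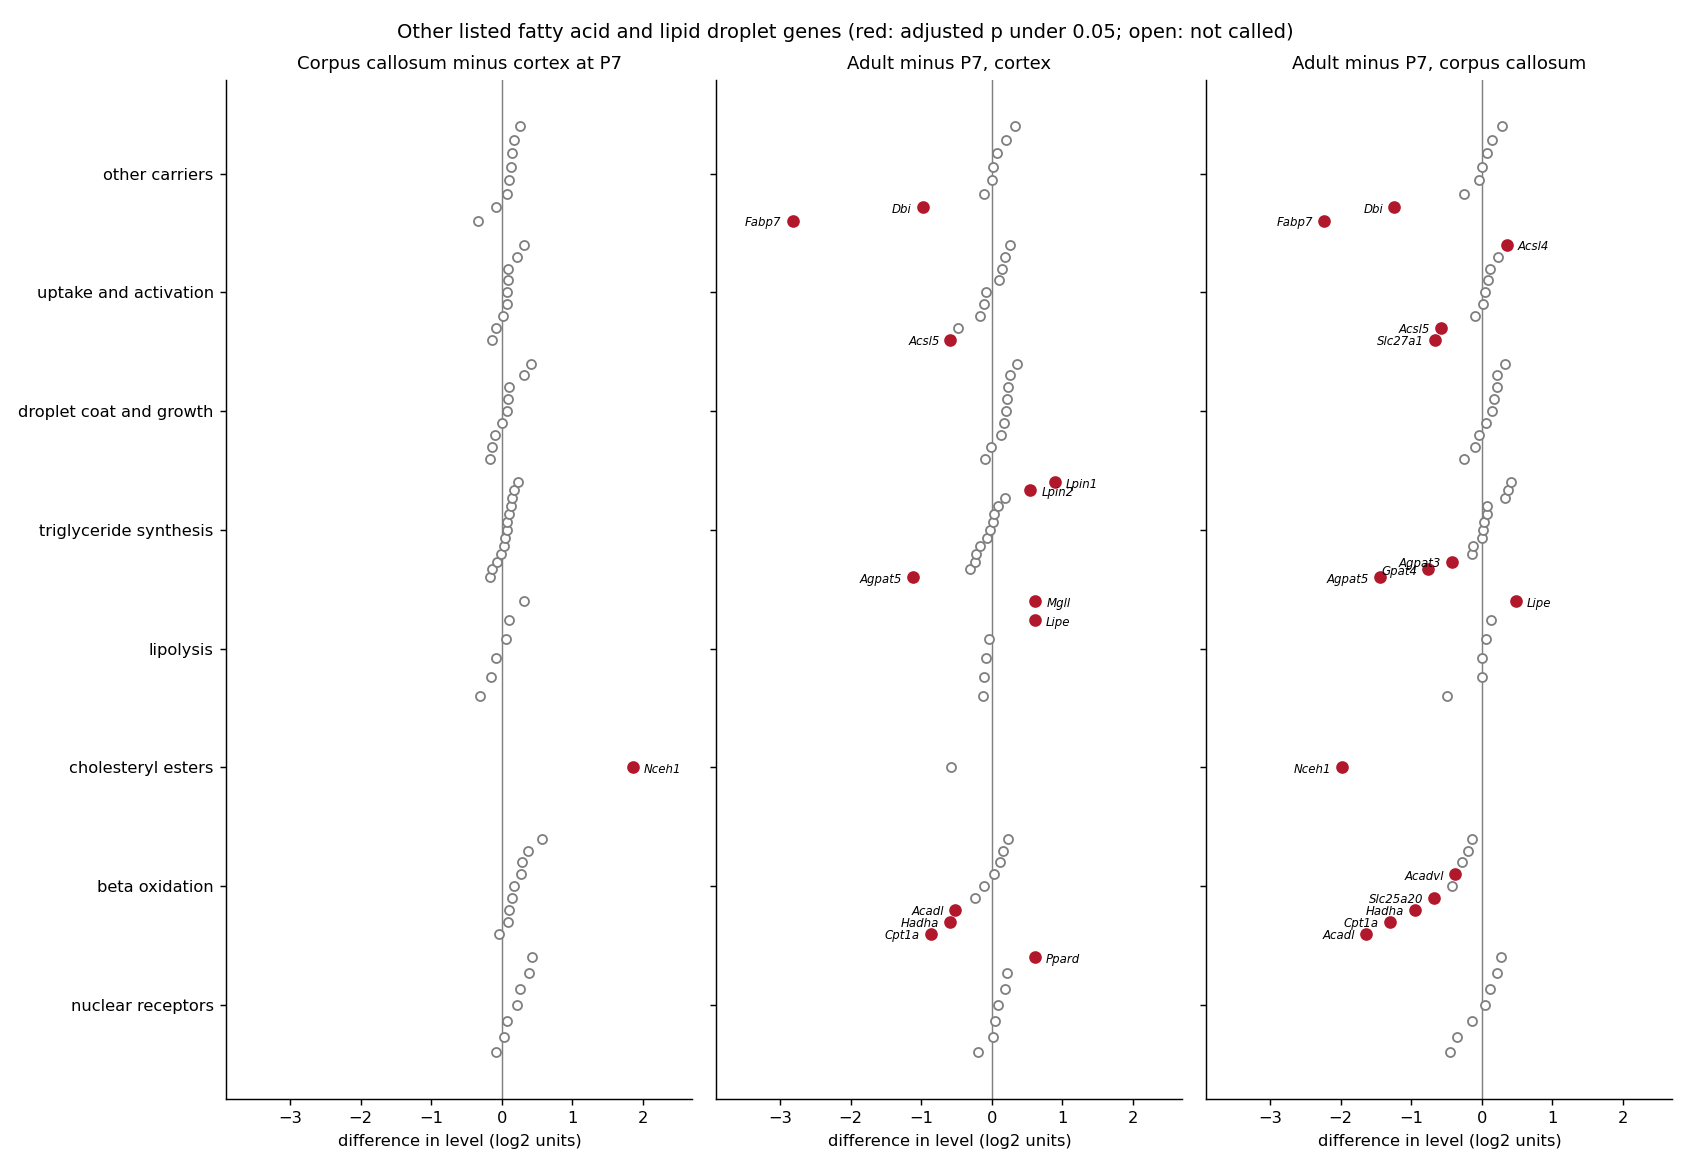
Difference in level (log2 units, horizontal axis) of 62 further genes of fatty acid handling by class (vertical axis), between corpus callosum and cortex at P7 and between adult and P7 in each region; red points have an adjusted p under 0.05 and are named. Nceh1 is the red point of the regional panel, and red points of beta oxidation lie left of 0 in both age panels.

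Between P7 and the adult 5 of the 62 were called higher and 7 lower in cortex, and 2 higher and 13 lower in corpus callosum, beside 4.05% and 6.15%, and 6.56% and 10.7%, of all genes. Nceh1 was among those called lower in corpus callosum (-1.97), while in cortex it was not called (-0.57). Of the 9 measured genes of mitochondrial beta oxidation, 3 fell in cortex and 5 in corpus callosum, and 0 rose. Cpt1a, the carnitine palmitoyltransferase that admits long-chain fatty acids to mitochondria, fell by 0.86 ± 0.14 in cortex (adjusted p 0.000256). Acadl, the long-chain acyl-CoA dehydrogenase, measured 8.57, 8.16 and 8.17 in callosal microglia at P7 and 6.67, 6.65 and 6.66 in the adult, a fall by 1.64 ± 0.14 (adjusted p 1.1e-07). Its regional difference shifted by -1.12 ± 0.19 from P7 to the adult (adjusted p 0.025).

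Of 13 genes of triglyceride synthesis 2 rose and 1 fell in adult cortex, and 0 rose and 3 fell in adult corpus callosum. Agpat5, an acylglycerophosphate acyltransferase, fell in both (-1.12 ± 0.12, adjusted p 2.76e-06 and -1.44 ± 0.12, adjusted p 9.81e-08), while Lpin1, a phosphatidate phosphatase, rose in cortex (0.90 ± 0.15, adjusted p 0.000356). Among 6 lipolysis genes Lipe, the hormone-sensitive lipase, rose in both regions (0.61 ± 0.11, adjusted p 0.00108 in cortex and 0.48 ± 0.11, adjusted p 0.00525 in corpus callosum), and Mgll, the monoglyceride lipase, rose in cortex (0.62 ± 0.15, adjusted p 0.0111). Among 9 genes of uptake and activation 0 rose and 1 fell in adult cortex, and 1 rose and 2 fell in adult corpus callosum. The gene that rose was Acsl4, a long-chain acyl-CoA synthetase that favours arachidonate (0.36 ± 0.11, adjusted p 0.0315). Ppard, a nuclear receptor for fatty acids, rose in cortex (0.61 ± 0.15, adjusted p 0.00873), and 0 of the 9 droplet coat and growth genes outside the 10 were called in either region.

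Among 8 other carriers Fabp7 and Dbi fell in both regions. Dbi, the acyl-CoA binding protein, fell by 0.98 ± 0.14 in cortex (adjusted p 7.98e-05). Fabp7, the brain-type carrier known from radial glia and astrocytes, measured 9.72, 9.65 and 9.28 in cortex at P3, 7.39, 7.12 and 7.79 at P7 and 4.42, 4.65 and 4.76 in the adult. The adult cortex was 7.07-fold below P7 (-2.82 ± 0.42, adjusted p 0.000129), P7 was -2.12 ± 0.42 from P3 (adjusted p 0.0204), and adult corpus callosum was -2.24 ± 0.42 from P7 (adjusted p 0.000795). Astrocyte markers (8 of 9 measured, 5 with a mean below the lowest array median) averaged 5.31 to 5.66 in cortex at P3, 5.28 to 5.37 at P7 and 5.47 to 5.69 in the adult. Neuronal markers (14 of 14 measured, 8 below) averaged 5.97 to 6.22, 5.58 to 5.63 and 5.23 to 5.33 in the same groups. Oligodendrocyte precursor markers (7 of 7 measured, 4 below) averaged 5.77 to 5.94, 5.02 to 5.21 and 4.91 to 5.13 there. In corpus callosum at P3 Fabp7 measured 9.27, 9.74 and 7.15. On those arrays precursor markers averaged 6.01, 6.00 and 5.32, neuronal markers 5.92, 5.85 and 5.49, and astrocyte markers 5.63, 5.70 and 5.36. The part of any of these cells in the Fabp7 values was not tested.

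The genes most like Fabp5 over the 18 arrays, by Pearson correlation of log2 levels, were Myo5a (r = 0.98), Lgals1 (r = 0.98) and Plin2 (r = 0.97). For Plin2 they were Myo5a, Fabp5 and Apoc1 (r = 0.97 each), and for Plin3 Ctla2b (r = 0.96), Cstb (r = 0.93) and Gsn (r = 0.92). These 18 points share 6 group means, and after each group mean was taken away Fabp5 and Plin2 had r = 0.45 and Fabp5 and Lipa r = -0.32. Cd36 was most like Il18rap (r = 0.96), Gpr65 (r = 0.93) and Cxcr2 (r = 0.92). On callosal replicate 3 at P3 these 3 measured 7.65, 10.19 and 9.43, against 5.71 to 6.13, 8.07 to 8.29 and 7.20 to 7.55 on the other callosal arrays of that age. Without the pair of arrays farthest from the median of Cd36, its r with them was 0.84, 0.82 and 0.80. Fabp4 was most like Rai14 (r = 0.83), Myo9b (r = 0.82) and Vps13c (r = 0.81), and without the pair of arrays farthest from its median these were 0.61, 0.59 and 0.52.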

How the data were processed

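The authors deposited a log2 expression level for each of 41345 probe sets on each array. The submitters' processing notes name RMA, the robust multi-array average, for this step, while its version and settings and the annotation of the arrays were not given in the sources used here. A log base of 2 was assumed, as RMA gives it. RMA aligns the distributions of the arrays, so a change in total RNA per cell cannot be seen, and it compresses large differences and those of dim probe sets.

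From these values 23521 probe sets with a single gene symbol in GEO's platform annotation were kept, and the brightest probe set over the 18 arrays stood for its gene (22180 genes, 1082 with more than 1 probe set). Left out were 1814 probe sets with several symbols and 16010 with none. A mean for each group was fitted to all 18 arrays in limma 3.58.1 (R 4.3.3; lmFit, contrasts.fit, eBayes; 12 residual degrees of freedom), and the steps were tested on simulated data. The 10 comparisons were two-sided with Benjamini-Hochberg adjustment over all genes and a threshold of 0.05. Each adjusted p is limma's, ± gives an SE after a difference, and n is 3 arrays a group, whose number limits the precision. The smallest two-sided exact permutation p for 3 against 3 is 0.1, so exact tests of single genes were not used. The 10 genes, the lists of other genes and the alternatives were chosen with earlier results of these data known. All 10 genes are described; of the other listed genes up to 4 called per direction and comparison with the largest difference are named, and for each of the 10 whose group means span 1 log2 unit or more the 3 genes with the highest correlation over the arrays. The motifs CCAAT and GGGCGG were added after the promoter windows had been read. Alternatives were a further quantile normalization, a trended robust eBayes, array weights, a filter on dim genes, the mean or the dimmest of a gene's probe sets (the latter added after the Fabp5 levels had been seen), the compared groups alone, the replicate number as a block, and each array left out in turn.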

Additional observations from a re-analysis of the deposited data

How the results depend on the processing

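The falls of Fabp5, Plin2 and Plin3 from P7 to the adult kept their direction and their call in both regions under every alternative run, except that the dimmest Fabp5 probe set missed the threshold in cortex (-0.95, adjusted p 0.0691). The regional calls were less stable, and causes were not tested. At P3 the number of the 10 genes called went from 3 to 1 with a further quantile normalization, with array weights and with only the groups compared, to 2 with the replicate block and to between 0 and 2 with an array left out, but to 4, with Pnpla2, with a trended eBayes and with the filter on dim genes. At P7 it went from 3 to 1 with only the groups compared and to between 1 and 3 with an array left out, but to 4, with Plin3, with the filter and with array weights. In adult against P7 cortex it went from 3 to 5 with quantile normalization, which added Cd36, lower (-0.91), and Pnpla2, higher (0.50). It went to 6 with array weights, which added Fabp3, lower (-0.41), besides these genes. It went to 2 with the dimmest probe sets and to between 3 and 4 with an array left out. In corpus callosum it was 4 to 6, against 5. For the regional difference in the adult against that at P7 it went from 0 to 1, Fabp5, with the mean or the dimmest of the probe sets and without cortical P7 replicate 1 (-1.76, adjusted p 0.0382). The filter on dim genes gave no value for Fabp4, Cd36 and Dgat2. Signs turned for differences near 0 that were not called: Fabp3 between regions at P3 (-0.0213 with quantile normalization, -0.0756 with the mean and -0.22 with the dimmest probe set) and in the adult (-0.0483, dimmest), and Lipa in the adult (-0.000461 with array weights). With an array left out these ranges crossed 0: between regions -0.17 to 0.69 for Cd36 at P3, -0.17 to 0.0685 for Dgat1 at P3, -0.15 to 0.0401 for Dgat1 at P7, -0.33 to 0.10 for Dgat2 at P3, -0.0683 to 0.204 for Dgat2 in the adult and -0.0563 to 0.21 for Lipa in the adult. From P7 to the adult these were -0.0647 to 0.17 for Dgat1, -0.226 to 0.0457 for Dgat2 and -0.26 to 0.00464 for Lipa in cortex, -0.0178 to 0.193 for Pnpla2 in corpus callosum and -0.19 to 0.0592 for the change of the regional difference of Plin3. Same-numbered arrays of the regions deviated together only weakly (r 0.02 to 0.11 at P3, 0.05 to 0.13 at P7, 0.06 to 0.30 in the adult) and not over 0.1 in every pair, so the values reported were fitted without a block. Yet 15 of 18 arrays correlated best with their own number, and Xist was high on replicate 1 of every P7 and adult group, a hint from the data that same-numbered arrays share something. With the replicate number as a block Lipa at P3 kept its difference of 0.77 and missed the threshold (adjusted p 0.0579), which left 2 genes called there; no other call among the 10 genes changed, and of the counts over all genes the block moved those for the regional difference in the adult, from 45 to 28 against P7 and from 40 to 21 against P3, by more than 1.5 times. Other such moves follow. Between regions at P3 112 became 197 with a trended eBayes, 273 with the filter, 61 with array weights, 16 with only the groups compared and 29 to 126 with an array left out (29 and 55 without cortical replicates 2 and 1). At P7 100 became 236 with array weights, 40 with only the groups compared and 48 to 90 with an array left out. In the adult 1 became 3 with array weights or without callosal replicate 3, 2 with only the groups compared and 0 with the dimmest probe sets. Adult against P7 in cortex went from 2264 to 3861 with array weights. P7 against P3 in cortex went from 196 to 644 with array weights and to between 72 and 198 with an array left out, and in corpus callosum from 164 to between 5 and 370 with other settings and to between 13 and 506 with an array left out (506 without callosal P3 replicate 3). The regional difference in the adult against that at P7 went from 45 to between 23 and 105 with other settings and to between 12 and 47 with an array left out, that against P3 from 40 to between 4 and 202 with other settings and to 0 without callosal adult replicate 2, and that at P7 against P3 from 0 to 1 without cortical P7 replicate 3. Signal was not told apart from background in the deposited values, which limits Fabp4, Cd36 and Dgat2, all with group means below the array medians.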
